A study of Rattus norvegicus with 6 samples.

Results

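Heat production without shivering is a task of brown adipocytes, and 5 of the 7 genes listed here for it and for mitochondrial uncoupling were matched to a row of the array: *Adrb3*, *Dio2*, *Ucp1*, *Ucp2* and *Ucp3*. The genes were chosen by name, through a RefSeq gene table, and each of the 5 has a single row among the 26300 features tested. *Elovl3* and *Cidea*, the other two listed genes, had no matched row and were not analysed here. A symbol was matched for 36.9% of rows, so a gene without a match may still have a probe on the array. Skeletal muscle RNA of 3 lower birth weight (LBW) and 3 average birth weight (ABW) male Wistar pups, all 1 day old, was measured on 6 single-colour arrays. Each array is called a pup here, following the label of a biological replicate, although the labels do not say whether 1 animal or several gave the RNA. LBW stood for birth weight percentiles 5 to 25. ABW stood for 50 to 75 according to the treatment protocol and the study's methods, but for 25 to 75 according to the sample characteristics. The tissue was soleus and gastrocnemius, and the litter of each pup is not given in the sources used here, so that the spread between pups may hold differences between litters.

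In brown adipocytes, noradrenaline released by sympathetic nerves binds the β3-adrenoceptor encoded by *Adrb3* and raises cAMP. The signal frees fatty acids and induces *Dio2*, the deiodinase that turns thyroxine into active triiodothyronine within the cell. Fatty acids then open Ucp1, a carrier of the inner mitochondrial membrane that lets protons back into the matrix, so that the energy of the gradient is released as heat. *Ucp2* and *Ucp3* encode close relatives of Ucp1. *Ucp2* is expressed in many tissues and in immune cells, whereas *Ucp3* is mainly a gene of skeletal muscle and brown fat that follows fatty acid supply, and neither is regarded as a main heat source. Rodent pups depend on brown fat for warmth after birth, while the hindlimb muscles studied here contain it at most as an admixture.

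To show what lies upstream of the uncoupling genes, the promoter windows of the 3 relatives are given here, from 250 bases before to 50 bases after the start of each gene. RefSeq sequences of the build GRCr8 were matched by symbol for 4 of the 5 genes, all except *Adrb3*. Capitals mark 3 short motifs that were searched on both strands. They are the E-box CANNTG, bound by the MyoD family of muscle factors among others, the half-site AGGTCA of nuclear receptors such as the PPARs and the thyroid hormone receptors, and TGACG, the core of the cAMP response element. *Ucp3* (chr1:164227660-164227959, plus strand) and *Ucp2* (chr1:164251123-164251422, plus strand) are neighbours on chromosome 1, and *Ucp1* (chr19:41721372-41721671, minus strand) lies on chromosome 19.
Ucp3: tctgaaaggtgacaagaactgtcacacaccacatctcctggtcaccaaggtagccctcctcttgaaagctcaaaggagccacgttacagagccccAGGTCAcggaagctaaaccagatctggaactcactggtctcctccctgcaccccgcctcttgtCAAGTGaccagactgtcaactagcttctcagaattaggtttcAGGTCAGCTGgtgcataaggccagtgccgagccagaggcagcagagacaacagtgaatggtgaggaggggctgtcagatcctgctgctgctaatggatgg
Ucp2: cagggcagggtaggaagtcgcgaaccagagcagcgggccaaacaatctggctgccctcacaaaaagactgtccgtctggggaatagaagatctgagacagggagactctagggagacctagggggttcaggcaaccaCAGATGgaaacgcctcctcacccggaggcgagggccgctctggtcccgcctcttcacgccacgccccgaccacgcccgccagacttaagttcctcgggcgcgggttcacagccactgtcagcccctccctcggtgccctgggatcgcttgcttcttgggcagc
Ucp1: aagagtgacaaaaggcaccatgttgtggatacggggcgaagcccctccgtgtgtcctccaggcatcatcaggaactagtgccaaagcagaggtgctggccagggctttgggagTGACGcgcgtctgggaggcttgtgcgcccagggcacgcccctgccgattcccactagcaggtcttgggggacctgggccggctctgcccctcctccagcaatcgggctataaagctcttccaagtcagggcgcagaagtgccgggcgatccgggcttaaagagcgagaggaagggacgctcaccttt

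The *Ucp3* window held the half-site AGGTCA at -155 and at -50, counted from the start of the gene, and E-boxes at -92 and -46, of which the last shares 2 bases with the half-site before it. The windows of *Ucp1*, *Ucp2* and *Dio2* held no AGGTCA on either strand. Over all 33469 promoter windows of this length in the table, 16.2% held at least 1 AGGTCA and 1.81% at least 2. *Ucp2* had a single E-box at -113, *Ucp1* had TGACG at -137, and the *Dio2* window had none of the 3 motifs. An E-box was present in 72.1% and TGACG in 21.2% of all windows. These matches describe letters and not binding.

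Before the genes are compared, the arrays themselves differed in what else they held. Markers of skeletal muscle were alike in all pups on average, and the mean log2 value of the 13 markers with a row (of 20 listed) lay between 14.05 and 14.19. Of these, 1 (*Des*) did not overlap between the groups, at 14.06 to 14.22 in LBW and 13.80 to 13.99 in ABW pups. Such a separation, higher in LBW, was shown by 7.27% of all features. Actin alpha 1 (*Acta1*), which defines the tissue, was between 15.15 and 15.41 on the log2 scale. A gene is termed called where limma, a linear model that moderates each variance with those of all features, gave an unadjusted p under 0.05 and the fold change was at least 1.5, the threshold of the study. Bone markers were not alike. The 11 bone genes with a row (of 14 listed), averaged as log2 deviation from the ABW pups, were at 2.72, 0.45 and 3.56 for LBW 1, 2 and 3 and at -0.10, -0.05 and 0.15 for ABW 1, 2 and 3. *Spp1*, *Ibsp* and *Bglap*, all genes of mineralizing bone, were among the 6 of 11 called higher, where 2.38% of all features were, and the study had already chosen these 3 on the same arrays. With a single pup left out the count was 3 without LBW 1, 4 without LBW 3, 10 without LBW 2 and 5 to 6 without an ABW pup, and it was 3 by the methods' test. Of the 7 neutrophil genes with a row (of 12 listed), 4 were called higher, where 2.38% of all features were. Among them were *S100a8* (log2 fold change 2.05) and *S100a9* (2.19), while *Lcn2* (0.12) was not called and 2 were slightly lower. All 4 are printed by the study among the genes it found higher on these arrays, so their calls are not independent evidence. With a single pup left out the count was 4 without LBW 2 and 3 without any other pup, and it was 3 by the methods' test. Both *S100a8* and *S100a9* were lowest in LBW 2 among the LBW pups. LBW 2 was thus the LBW pup closest to the ABW pups in these markers, and their part in the results was not tested.

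Between the groups, *Adrb3* was at 0.454 of the ABW level in LBW muscle, *Ucp3* had 1.33 times the ABW level without overlap, and *Ucp1*, *Ucp2* and *Dio2* differed by less than the spread between pups. Of the 5 genes, *Adrb3* was called, and it was lower in LBW. Over all features 4.27% were called, 1.89% as lower and 2.38% as higher in LBW. Without the fold change criterion both *Adrb3* and *Ucp3* passed, where 12.4% of all features did. After Benjamini-Hochberg adjustment over all features by limma, 0 of the 5 genes and 0% of all features had an adjusted p under 0.05, against 3250 features at an unadjusted p under 0.05. The methods' test, which is the test that the study names for its data in general, likewise gave 0 after adjustment and 2501 without it.

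**Figure D1:**
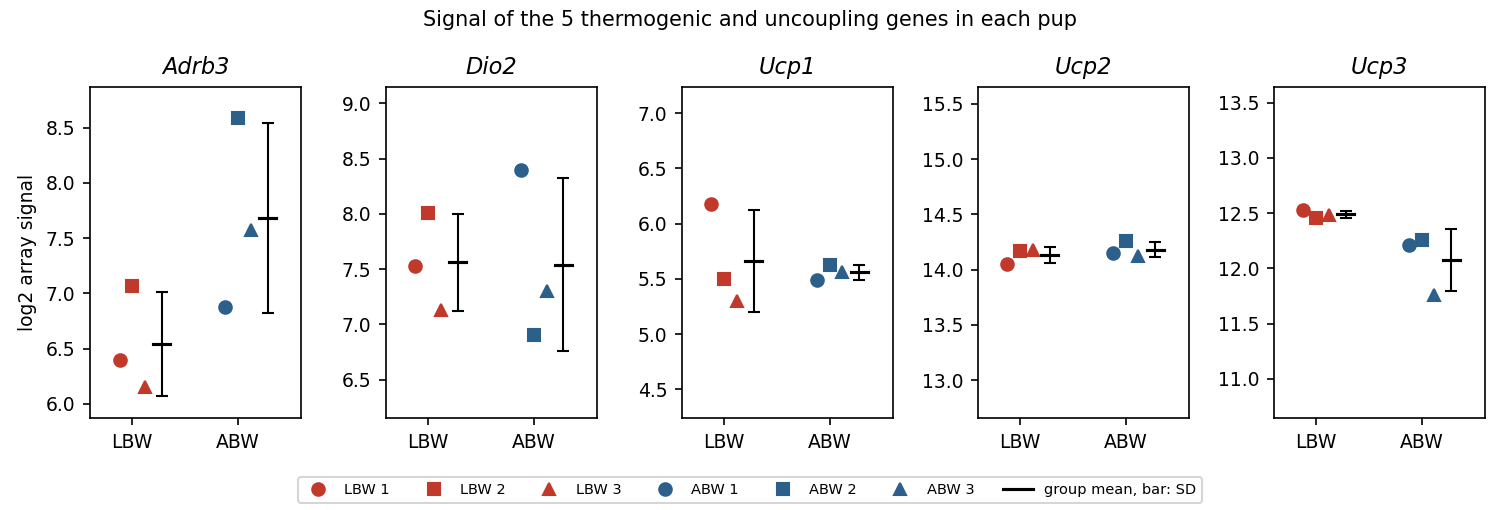
Log2 array signal of *Adrb3*, *Dio2*, *Ucp1*, *Ucp2* and *Ucp3* (y axes, all of the same height in log2 units but with different origins) in the 3 LBW and 3 ABW pups, with 1 symbol per pup number, a bar for the group mean and whiskers for the SD. The *Ucp3* values of the LBW pups all lie above those of the ABW pups, while the groups overlap for the other 4 genes.

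*Adrb3* (NM_013108), the receptor that carries the noradrenaline signal into fat cells, was at 6.40, 7.07 and 6.15 in LBW 1, 2 and 3 on the log2 scale, and at 6.88, 8.59 and 7.57 in ABW 1, 2 and 3. LBW 1 and LBW 3 were below all ABW pups, but LBW 2 lay above ABW 1, so that the groups overlapped. LBW pups averaged 6.54 ± 0.47 and ABW pups 7.68 ± 0.86 (SD, n = 3 each). The resulting log2 fold change was -1.14 (SE 0.45, 95% interval -2.22 to -0.06, limma adjusted p = 0.384), or 0.454 of the ABW level. The LBW values are dim, below the array medians of 8.695 to 8.757, and no detection call was used here. How far they lie above background is unknown, so the size of this ratio is uncertain. Unlike *Ucp1*, *Adrb3* was not among the dimmest features that the filter left out. An exact permutation test of the 6 values gave a 2-sided p of 0.2, where 3 pups against 3 cannot give less than 0.1. The study prints *Adrb3* among the genes it found lower on these arrays, so its call is not independent evidence. The call was kept without LBW 2 or without ABW 1 (log2 fold change -1.40 and -1.54). It was lost without LBW 1 (-1.07), LBW 3 (-0.95), ABW 2 (-0.69) or ABW 3 (-1.20), and by the methods' test.

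*Adrb3* is mainly a gene of adipocytes, and most markers of white adipocytes were also lower in LBW pups. Of 20 with a row (of 25 listed), 19 were lower in LBW, the median log2 fold change was -0.36 and 4 were called, all as lower, in comparison to 1.89% of all features. These were *Lep* (leptin, -1.57), *Acvr1c* (an activin receptor of adipocytes, -1.43), *Pparg* (the master regulator of fat cells, -1.20) and *Aqp7* (the glycerol channel, -0.65). The study had chosen the first 3 of them on these arrays. *Lep* was between 5.75 and 5.96 in the LBW pups and at 6.05 in ABW 1, about as dim as *Ucp1*. It was high only in ABW 2 (8.09) and ABW 3 (8.18). How far its dim values lie above background is unknown. With any 1 pup left out, between 1 and 7 of the 20 were called, with 1 without LBW 1, LBW 3 or ABW 2, 2 without ABW 3 and 7 without ABW 1. The methods' test called 0 of them. *Adipoq*, the fat hormone adiponectin, had a log2 fold change of -0.94 and *Fabp4*, the fatty acid binding protein of adipocytes, of -0.19, and neither was called. The 20 markers, averaged as log2 deviation from the ABW pups, were at -0.43, -0.22 and -1.08 in LBW 1, 2 and 3 and at -0.55, 0.39 and 0.16 in ABW 1, 2 and 3. The lowest pup was LBW 3 and the highest ABW 2 for these markers and for *Adrb3* alike, and ABW 1 lay among the LBW pups for both. The part of the marker shift in the difference of *Adrb3* was not tested. In these bulk samples, fewer adipocytes and less RNA per adipocyte cannot be told apart.

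**Figure D2:**
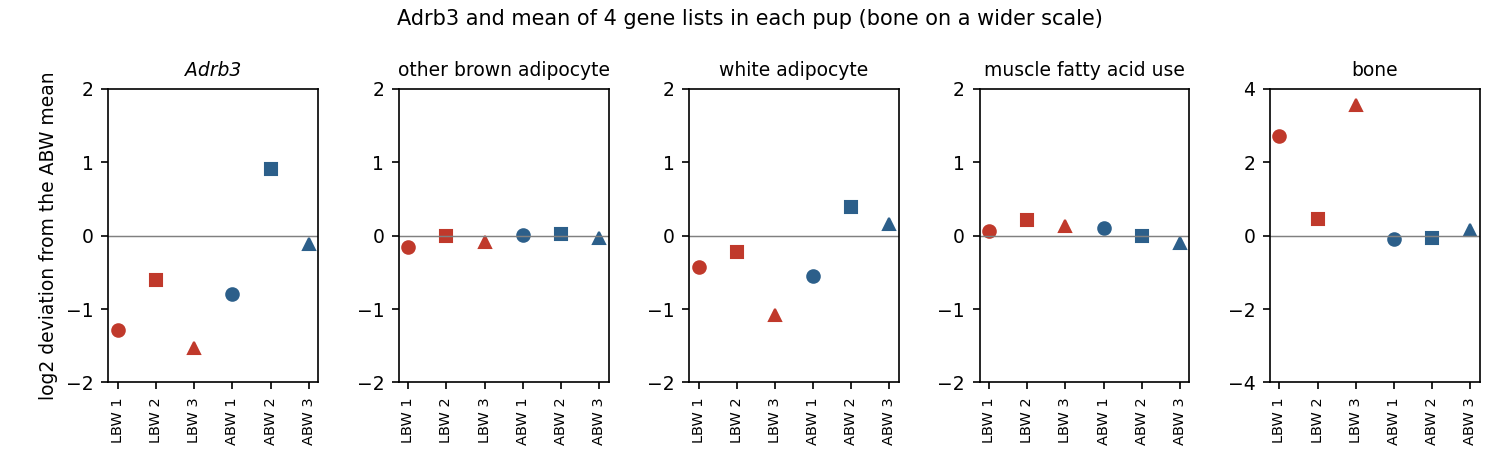
*Adrb3* and the mean of 4 gene lists in each pup (x axis), as log2 deviation from the ABW mean (y axis, wider for bone). *Adrb3* and the white adipocyte markers are lowest in LBW 3 and highest in ABW 2. The mean of the other brown adipocyte markers, some of them dim, stays between -0.15 and 0.02. Bone markers are high in LBW 1 (2.72) and LBW 3 (3.56).

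*Ucp3* (NM_013167), the uncoupling protein of muscle, was at 12.53, 12.46 and 12.48 in LBW 1, 2 and 3 and at 12.21, 12.26 and 11.76 in ABW 1, 2 and 3 on the log2 scale. Every LBW pup was above every ABW pup, a separation in that direction that 7.27% of all features showed. The LBW pups were nearly identical, and most of the spread came from ABW 3. LBW pups averaged 12.49 ± 0.03 and ABW pups 12.08 ± 0.28 (SD, n = 3 each). The log2 fold change was 0.41 (SE 0.15, 95% interval 0.06 to 0.77, limma adjusted p = 0.353), a 1.33-fold difference that is below the fold change threshold, and the exact permutation test gave a 2-sided p of 0.1. Without ABW 3 the difference was 0.25, and the unadjusted p by limma was above 0.05 when any LBW pup was left out, as well as by the methods' test.

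*Ucp1* (NM_012682), the heat-producing carrier itself, was at 6.18, 5.50 and 5.30 in LBW 1, 2 and 3 and at 5.49, 5.63 and 5.56 in ABW 1, 2 and 3. LBW 1 stood above the other pups, and LBW 3 was the lowest. Its mean over the 6 arrays belongs to the dimmest 25% of features, and no detection call was used here, so how far these values lie above background is unknown. The log2 fold change was 0.10 (SE 0.22, 95% interval -0.44 to 0.63, limma adjusted p = 0.893), and it was -0.16 without LBW 1.

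*Dio2* (NM_031720), which supplies active thyroid hormone within the cell, varied more between pups than between groups. It was at 7.53, 8.01 and 7.13 in LBW 1, 2 and 3 and at 8.40, 6.90 and 7.30 in ABW 1, 2 and 3. The highest and the lowest value were thus both from ABW pups. The log2 fold change of 0.02 had an SE of 0.41 and a 95% interval of -0.97 to 1.01 (limma adjusted p = 0.988), an interval that reaches about 2-fold in either direction. It ran from -0.29 without ABW 2 to 0.45 without ABW 1.

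*Ucp2* (NM_019354), the relative found in many tissues, was the steadiest of the 5 genes. The values were 14.05, 14.17 and 14.18 in LBW 1, 2 and 3 and 14.15, 14.26 and 14.12 in ABW 1, 2 and 3. The groups overlapped, and all 6 pups lay within 0.21 of each other. The log2 fold change was -0.04 (SE 0.09, 95% interval -0.25 to 0.17, limma adjusted p = 0.876), an interval that does not reach a 1.5-fold difference in either direction. *Ucp2* is also expressed in macrophages, and 0 of 11 macrophage markers with a row (of 15 listed) were called by limma, where 4.27% of all features were, with a median log2 fold change of -0.08.

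**Figure D3:**
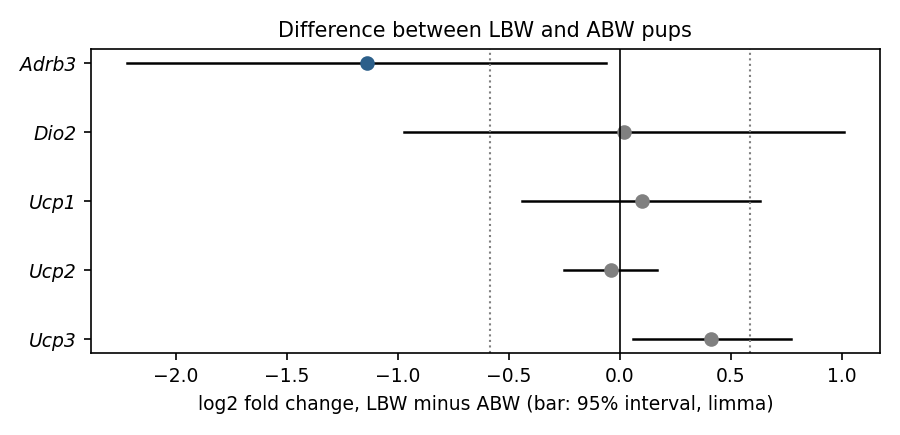
Log2 fold change of LBW minus ABW (x axis) for the 5 genes, with 95% intervals from limma as bars, a solid line at 0 and dotted lines at the 1.5-fold threshold. The interval of *Adrb3* (-2.22 to -0.06) lies below 0, that of *Ucp3* (0.06 to 0.77) lies above it, and those of *Dio2*, *Ucp1* and *Ucp2* include it.

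The brown fat genes were then set against *Ucp3* within each pup, so that any scaling of a whole array cancels. The log2 value of *Ucp3* was subtracted from that of the other gene. The size of such a difference has no meaning because probes differ in brightness, but it can be compared between pups. For *Adrb3* minus *Ucp3*, LBW 1, 2 and 3 were at -6.12, -5.39 and -6.33, and ABW 1, 2 and 3 were at -5.33, -3.67 and -4.18. No LBW value reached the ABW values, although LBW 2 and ABW 1 nearly met. The LBW mean was lower by 1.55 on the log2 scale (-1.55, exact permutation test, 2-sided p = 0.1, the smallest possible), and the difference lay between -2.02 and -1.19 with any 1 pup left out. With 3 pups against 3 this test cannot pass 0.05.

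The other brown fat genes did not separate from *Ucp3* in this way. *Ucp1* minus *Ucp3* was at -6.35, -6.96 and -7.18 in LBW 1, 2 and 3 and at -6.72, -6.63 and -6.20 in ABW 1, 2 and 3. The groups overlapped because of LBW 1, and the LBW mean minus the ABW mean was -0.31 (exact permutation test, 2-sided p = 0.4). For *Dio2* minus *Ucp3* the groups also overlapped, with a difference of -0.39 (exact permutation test, 2-sided p = 0.7) that was -0.02 without ABW 1. *Ucp2*, the neighbour of *Ucp3* on the chromosome, was compared in the same way. *Ucp2* minus *Ucp3* was at 1.53, 1.71 and 1.69 in LBW 1, 2 and 3 and at 1.94, 2.00 and 2.36 in ABW 1, 2 and 3, without overlap, and the difference was -0.46 (exact permutation test, 2-sided p = 0.1). These 4 comparisons share the *Ucp3* values and are not independent of each other. *Ucp2* by itself overlapped between the groups (log2 fold change -0.04), so its separation here mostly repeats that of *Ucp3* (0.41).

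**Figure D4:**
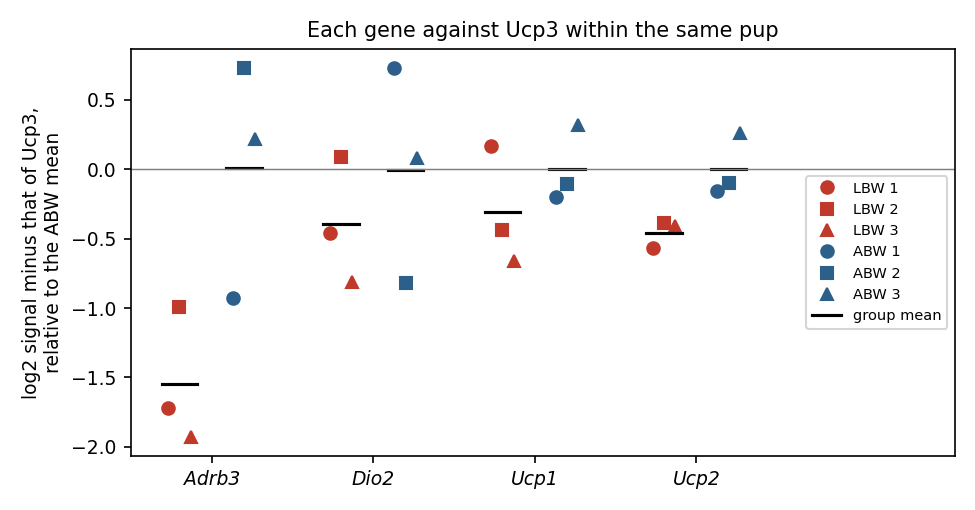
Log2 signal of *Adrb3*, *Dio2*, *Ucp1* and *Ucp2* minus that of *Ucp3* in the same pup (y axis), set relative to the ABW mean, with 1 symbol per pup and bars for the group means. Relative to *Ucp3*, *Adrb3* (-1.55) and *Ucp2* (-0.46) lie lower in all LBW than in all ABW pups, whereas *Dio2* and *Ucp1* overlap. By themselves, *Adrb3* and *Ucp2* overlap between the groups.

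Other markers of brown adipocytes lay on both sides of 0. Of the 14 with a row (of 26 listed), 7 were higher and 7 lower in LBW, the median log2 fold change was 0.01 in comparison to -0.02 over all features, and 1 was called, where 4.27% of all features were. The count called lower was 2 without LBW 2 or without ABW 1, and 1 was called higher without ABW 1. Some of the 14, such as *Zic1* (5.62 to 5.99 over the pups), were about as dim as *Ucp1*. Others, such as *Cox8b* (13.97 to 14.24), were bright. How far the dim ones lie above background is unknown, so the list median need not describe brown adipocytes. The called gene was *Lhx8*, a LIM homeobox factor used as a marker of brown fat, which was at 6.25, 7.19 and 7.14 in LBW 1, 2 and 3 and at 8.17, 7.70 and 7.94 in ABW 1, 2 and 3. All LBW pups were below all ABW pups, as for 10.1% of all features. The log2 fold change of *Lhx8* was -1.08 (SE 0.27, limma adjusted p = 0.276), and the call was kept with any 1 pup left out and by the methods' test. *Zic1*, a zinc finger factor of classical brown adipocytes, had a log2 fold change of 0.26 with all LBW pups above all ABW pups, and was not called. *Cox8b*, a cytochrome oxidase subunit of brown fat and muscle, had a log2 fold change of 0.10. The defining factor *Prdm16* had no matched row and was not analysed here. Of the 14, 2 were higher and 2 lower in all LBW than in all ABW pups, as were 7.27% and 10.1% of all features. Those not yet named, *S100b* and *Ppargc1b*, lie outside the rule for named genes and were chosen after their values were seen. *S100b* was lower in all LBW pups (log2 fold change -0.50, SE 0.17, limma adjusted p = 0.332). It was called only without LBW 2 or without ABW 1. *Ppargc1b* was higher in all LBW pups. This partner of the nuclear receptors in mitochondrial biogenesis was at 11.21, 11.33 and 11.21 in LBW 1, 2 and 3 and at 11.04, 10.81 and 10.49 in ABW 1, 2 and 3 (log2 fold change 0.47, SE 0.15, limma adjusted p = 0.315). Its relative *Ppargc1a*, the main cold-induced coactivator, had a log2 fold change of -0.01.

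The genes of the signals that drive thermogenesis also lay on both sides of 0. Of 20 genes of adrenergic and thyroid input with a row (of 22 listed), 10 were higher and 10 lower in LBW, the median was 0.00, and 1 was called, in comparison to 4.27% of all features. *Nr1h3*, the oxysterol receptor LXRα, was lower by a log2 fold change of -0.65 (SE 0.22, limma adjusted p = 0.331), and it lost the call without LBW 1, ABW 2 or ABW 3 and by the methods' test. *Adrb1*, the β1-adrenoceptor, was between 6.10 and 6.28 in all pups (log2 fold change -0.03) and was not called. *Adra1a*, an α1-adrenoceptor, had a log2 fold change of 0.15 and was not called either. Of the deiodinases beside *Dio2*, which were named after their values were seen, *Dio1* had a log2 fold change of 0.14 and *Dio3*, which inactivates thyroid hormone, of 0.20. *Dio1* was at 6.42 in LBW 1 and between 5.73 and 5.96 in the other pups, and LBW 1 was also the highest pup for *Ucp1*. Both genes are dim, as is *Adrb1*, and how far their values lie above background is unknown.

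Other mitochondrial carriers were also set beside the uncoupling genes. Of the 11 mitochondrial carriers, 0 were called by limma, where 4.27% of all features were, and their median log2 fold change was -0.04. Without LBW 3, 1 carrier was called higher, and without ABW 1, 1 was called lower. The adenine nucleotide translocases *Slc25a4* and *Slc25a5*, which exchange ADP and ATP, had log2 fold changes of 0.10 and -0.04, and the oxoglutarate carrier *Slc25a11* had one of -0.10. Further routes to heat that do not need Ucp1 gave 8 of 9 genes higher in LBW, a median of 0.16 and 1 called higher, in comparison to 2.38% of all features. *Sln* encodes sarcolipin, which lets the calcium pump of muscle turn over ATP without moving calcium. It was at 14.52, 14.67 and 14.62 in LBW 1, 2 and 3 and at 14.29, 14.38 and 14.20 in ABW 1, 2 and 3, a separation without overlap at a log2 fold change of 0.31 (SE 0.09, limma adjusted p = 0.305), below the fold change threshold. The pump itself, *Atp2a1*, which is also on the skeletal muscle list, was at 0.16 on the log2 fold change scale. Creatine kinase B (*Ckb*) was at 0.40, and the groups overlapped for both genes. The called gene was *Alpl* (2.68), a phosphatase that is also a bone marker. The study prints it among the genes found higher on these arrays, so its call is not independent evidence. *Alpl* was at 10.56, 7.93 and 11.41 for LBW 1, 2 and 3 against 7.09 to 7.68 for the ABW pups, so that LBW 2 was again nearest to them. The methods' test did not call *Alpl*, nor did limma without LBW 1 (2.38), and the list had 2 genes called without LBW 2.

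*Ucp3* belongs to the genes that muscle turns on when fatty acids are used, and 18 further genes of fatty acid use were listed for comparison. In LBW pups 13 were higher and 5 lower, the median log2 fold change was 0.11 in comparison to -0.02 over all features, and 1 was called, as higher, in comparison to 2.38% of all features. *Ppara*, the receptor that senses fatty acids and induces their oxidation, was at 10.34, 10.24 and 9.85 in LBW 1, 2 and 3 and at 9.74, 9.20 and 9.03 in ABW 1, 2 and 3. The groups did not overlap, and the log2 fold change was 0.82 (SE 0.22, limma adjusted p = 0.286). Its call was kept with any 1 pup left out and by the methods' test. *Cpt1b*, which imports fatty acids into the mitochondria of muscle, was between 13.27 and 13.30 in LBW and between 12.80 and 13.16 in ABW pups. All its LBW values were therefore above the ABW values, as for *Ucp3*, and its log2 fold change of 0.33 (SE 0.11, limma adjusted p = 0.338) was again below the fold change threshold. *Pdk4*, a brake on glucose oxidation, had a log2 fold change of 0.33 with overlapping groups, and *Hadha*, an enzyme of β-oxidation, was at 0.00.

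**Figure D5:**
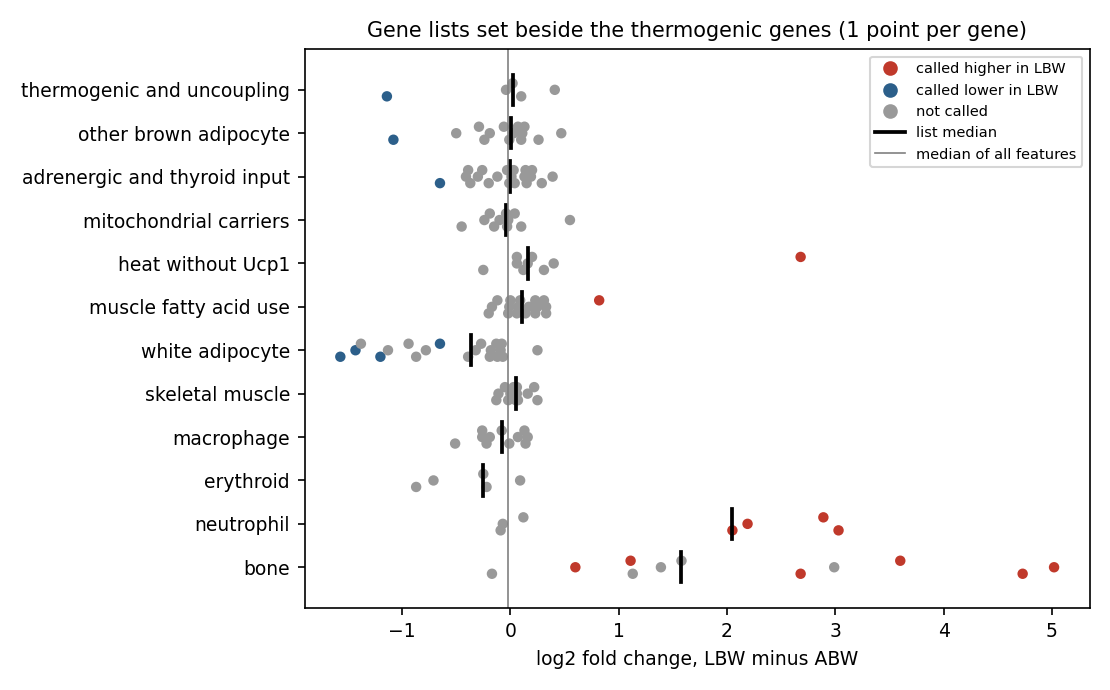
Log2 fold change of LBW minus ABW (x axis) of each gene with a row in 12 lists (y axis), coloured where called, with a black bar at each list's median and a grey line at the median of all features (-0.02). The thermogenic and uncoupling genes spread from -1.14 (*Adrb3*) to 0.41 (*Ucp3*), while white adipocyte genes lie mostly below and bone genes mostly above 0.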

How the data were processed

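Cy3-labelled material of each pup was read on a NimbleGen rat expression array of its own. The authors normalized the scans in R, and the submitters' processing notes name RMA. The values they deposited are log2 signals for 26419 transcripts, with array medians between 8.695 and 8.757. Versions and detection calls are not given in the sources used here. Arrays carry no count depth, so the number of pups limits the precision.

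Accessions were matched to a RefSeq gene table (assembly GRCr8), which named 9740 rows (36.9%). Rows of a symbol were averaged, which left 26300 features. LBW was compared with ABW with limma 3.58.1 in R 4.3.3 on the whole table, 2-sided, with Benjamini-Hochberg adjustment over all features, after a check on simulated arrays. As nothing states separate litters, p-values measure only the spread between these pups. Single values were compared with exact permutation tests. The alternatives were a replicate block, leaving out each pup, quantile normalization, median centring, a filter on the dimmest 25%, array weights, a variance with an intensity trend, a robust one, the methods' test, rows not averaged and a fold change of at least 2.

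The genes and lists were chosen with earlier results of these data known. The text names all 5 genes, from each list those called (at most 6) and the first 3 with a row, and the 3 genes most like each member whose values span at least 1 on the log2 scale. A gene that this rule names is not reported here.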

Additional observations from a re-analysis of the deposited data

How the results depend on the processing

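The number of pups and the lack of a detection call limit what can be said of dim genes such as *Ucp1*. Of the 1124 features called, 335 remained past a fold change of at least 2, and the methods' test called 584. Among the 5 thermogenic and uncoupling genes, the methods' test called 0, leaving out single pups called 0 to 1 (0 without LBW 1, LBW 3, ABW 2 or ABW 3), and the other alternatives called 1. Leaving out single pups gave 798 (without LBW 1) to 1546 (without LBW 2) features called and 0 to 125 features with an adjusted p under 0.05, where only the fit without LBW 2 gave more than 0. The adjusted p of *Adrb3* lay between 0.219 and 0.672 and that of *Ucp3* between 0.308 and 0.646 over their alternatives. The 4 differences from *Ucp3* kept their direction with each pup left out, with quantile normalization and with median centring, the only alternatives run for them. Median centring cancels in such a difference. *Dio2* minus *Ucp3* came to -0.02 without ABW 1, so its direction says little. *Gnas* was called as higher (0.71) by 1 of its 3 rows when rows were not averaged.

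Pups with the same replicate number were not treated as pairs in the main fit. Their values, centred on the group means, correlated at 0.087, 0.104 and 0.055 over features. Each pup correlated best with its own number, and pups of unlike number correlated between -0.096 and 0.021. These low correlations do not settle whether the numbers mark pairs. With the replicate block, 1230 features and 1 of the 5 genes (*Adrb3*) were called, and 0 features had an adjusted p under 0.05 by limma. The unadjusted p of *Adrb3* by limma was 0.006 with the block and 0.0419 without it, and its adjusted p was 0.219 and 0.384.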

Other observations

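Genes with a pattern like that of *Adrb3* or *Dio2* over the 6 pups were sought among 9620 named genes, by the root mean square difference of values centred on each gene's mean. The measure is a description over 6 pups, and no test was made. Nearest to *Adrb3* were *Cyp4f39* (0.26 on the log2 scale), *Mlxipl* (0.27), the glucose-sensing factor ChREBP of lipid synthesis, and *Fam72a* (0.29). *Cyp4f39* was at 6.84, 6.94 and 5.87 in LBW 1, 2 and 3 and at 6.63, 8.64 and 7.77 in ABW 1, 2 and 3, with ABW 2 again the highest and ABW 1 again among the LBW pups. Nearest to *Dio2* were *Nr2f1* (0.20), a nuclear receptor, *Ninj2* (0.21) and the olfactory receptor *Or52n2e* (0.22), and ABW 1 was the highest pup for all 3 of them, level with LBW 2 for *Ninj2*.

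Erythroid genes were lower in LBW in 4 of the 5 with a row (of 11 listed), with a median log2 fold change of -0.25 and 0 called by limma, where 4.27% of all features were. Without LBW 2, 2 of them were called lower. *Alas2*, the first enzyme of heme synthesis in red cell precursors, had a log2 fold change of -0.22, *Slc4a1*, the anion exchanger of the red cell membrane, of -0.87 and *Hemgn* of -0.71. LBW 3 was the lowest pup for the mean of these genes, at -1.01 relative to the ABW mean.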
